A study of Mus musculus with 103 samples.

Results

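The nasal prominences of the mouse embryo at E10.5 were compared with the cranial mesenchyme present a day earlier, at E9.5. The libraries were chosen by their titles: 4 from the E10.5 medial nasal prominence, 4 from the E10.5 lateral nasal eminence and 6 from E9.5 cranial mesenchyme, 14 of the 103 in the series. All came from outbred CD1 embryos with no allele or treatment recorded, and each was a region cut by laser from frozen sections and hybridised to an array of its own. For a comparison of stage in other tissues, 5 libraries of E10.5 maxillary arch were set against 5 of E9.5 maxillary arch, and 4 of E10.5 control neuroepithelium, which does not flank the facial prominences, against 5 of E9.5 neuroepithelium. The main comparison changes region and stage together, so these cannot be told apart in it. The labels tie no library to an embryo. Libraries of a group may share one, p-values measure the spread between libraries, and they may be too small.

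The mesenchyme of the upper face comes largely from cranial neural crest cells, which migrate under the surface ectoderm and then grow out as paired medial and lateral prominences around each nasal pit. Position within the face is set by homeobox and other transcription factors, among them the ALX and DLX families, and outgrowth depends on BMP, WNT and other signals exchanged with the ectoderm. Alx1 and Six2 are known regulators of frontonasal mesenchyme, while Barx1 is best known from the mesenchyme of the molar side of the jaw.

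Each value is the log2 of the ratio deposited by the authors for a gene, so 1 unit is a 2-fold difference between libraries and 0 is the authors' baseline. A ratio says nothing of how strongly a gene is expressed relative to another gene. Differences are the mean of the medial and lateral group means, weighted equally, minus the cranial mesenchyme mean, with a standard error (SE) from a spread pooled over 22 groups. "Rose" and "fell" are used for genes with an adjusted p under 0.05 by limma, Benjamini-Hochberg over 19938 genes. The number of arrays limits the precision.

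The labelled tissue was checked first. Twist1, a general factor of facial mesenchyme, lay between 1.45 and 2.7 in the nasal libraries and between 1.81 and 2.67 in cranial mesenchyme, against a highest value of 0 in E9.5 neuroepithelium and -2.08 in the E10.5 control neuroepithelium. Prrx2 was at least 0.23 in medial, 0.71 in lateral and 0.2 in cranial mesenchyme libraries, against at most 0 in E9.5 neuroepithelium. The mesenchyme markers Prrx1 and Pdgfra overlapped neuroepithelium. Prrx1 ran from 2.4 to 4.36 in medial, -0.16 to 3.74 in lateral and 0.62 to 3.18 in cranial mesenchyme libraries, and up to 1.48 in E9.5 neuroepithelium. Pdgfra ran from -0.05 to 0.58 in medial and -0.43 to 0.81 in lateral libraries, and up to 0.01 in E9.5 neuroepithelium. Alx1 was 1.41, 0.46, 1.07 and 4.63 in the medial libraries and 4.69, 5.47, 5.71 and 4.99 in the lateral libraries, and ran from 2.14 through a median of 4.63 to 5.74 in cranial mesenchyme. The lateral libraries and medial library 4 were therefore high, and the other 3 medial libraries were low. Six2 was 1.37, 1.66, 1.59 and 1.72 in the medial libraries and 2.42, 0.79, 2.45 and 0.38 in the lateral libraries, against 2.09, 2.69 and 3.37 (lowest, median and highest) in cranial mesenchyme. Neither gene passed the test of nasal prominences against cranial mesenchyme: the difference was -0.61 ± 0.47 (SE) for Alx1 and -1.11 ± 0.45 for Six2, with adjusted p = 0.49 and 0.14 by limma. With each library left out in turn, Alx1 ran from -1.06 without medial library 4 (adjusted p = 0.14) to -0.29 without cranial mesenchyme library 2 (adjusted p = 0.9).

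The arrays of the 3 groups differed in shape. Genes with a log2 ratio below -1 made up 13.0%, 17.0%, 5.7% and 5.9% of the medial arrays, 7.4%, 10.4%, 0.1% and 11.9% of the lateral arrays, and 0.2% to 8.0% of the cranial mesenchyme arrays, where replicates 4 and 5 were the high ones. The mean was 8.93 ± 5.2% in nasal arrays (SD, n = 8) and 3.34 ± 3.3% in cranial mesenchyme arrays (SD, n = 6), a difference of 5.59 points with an exact two-sided permutation p of 0.039. This long lower tail moves with the comparison. Its part in the results was not tested as a cause, and the results are given below also after quantile normalization, with each array's 5th percentile as a covariate, and among only the arrays with over 5% of genes below -1 (7 nasal, 2 cranial mesenchyme). In the maxillary arch, 3 of 5 arrays at E10.5 and 2 of 5 at E9.5 also passed that 5%, and in the neuroepithelium none did.

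**Figure D1:**
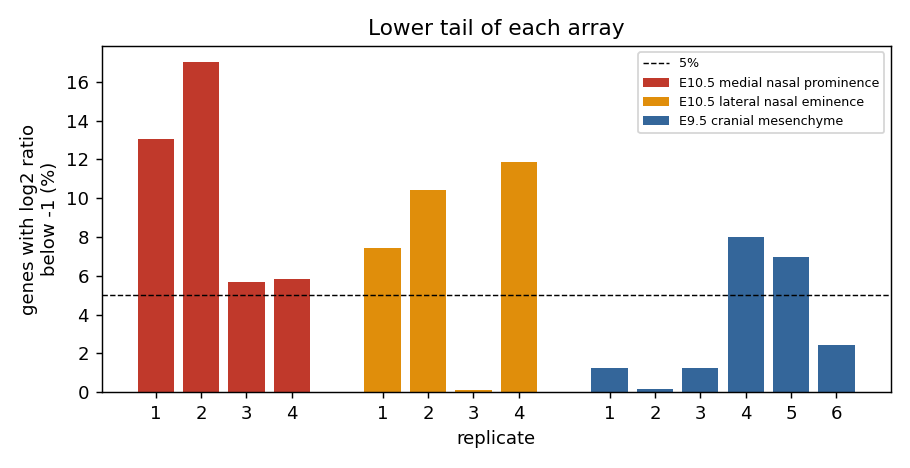
Lower tail of the 14 arrays. Bars give the percent of genes (vertical axis) with a log2 ratio below -1 in each replicate (horizontal axis) of the E10.5 medial nasal prominence, the E10.5 lateral nasal eminence and E9.5 cranial mesenchyme; the dashed line is at 5%. Lateral replicate 3 is the only nasal array under the line, and cranial mesenchyme replicates 4 and 5 are above it.

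In all, 790 of 19938 genes differed (3.96%), 141 higher in the nasal prominences (0.707%) and 649 lower (3.26%). Counts of called list members below are to be read beside these shares. Quantile normalization gave 457 (2.29%), 157 higher (0.787%) and 300 lower (1.5%), and centring each array on its median gave 259 higher and 547 lower, so the preponderance of lower genes depended in size on the scaling. Of the 141 genes that rose, 98 were also higher after quantile normalization and 24 with the covariate, while of the 649 that fell, 284 and 58 were. Among the tailed arrays alone, with fewer samples, 6 of the 141 and 37 of the 649 remained. A fit of the 3 compared groups alone, which cannot borrow the spread of the other groups, called 8 genes, 1 higher and 7 lower, with 3306 genes at an unadjusted p under 0.05. Of the 83 named genes that rose or fell, Nxn and Mrfap1 alone passed in that fit. The count also rested on single libraries: it was 1655 without lateral replicate 3, 176, 426 and 524 without cranial mesenchyme replicates 2, 3 and 1, 228 and 481 without medial replicates 2 and 1, and 286 and 359 without lateral replicates 4 and 2.

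Genes that place cells along the face were among the largest increases. Of 16 tested members of a list of arch and jaw patterning genes, Gsc, Barx1 and Dlx1 rose and Shox2 fell, with a list median of 0.36 against -0.04 over all genes. Over all genes 0.707% rose and 3.26% fell.

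Barx1, a homeobox gene, was 3.24, 3.63, 4.1 and 3.41 in the medial libraries, 3.16, 3.15, 0.03 and 0.06 in the lateral libraries, and -1.05, -0.47 and 0.27 (lowest, median and highest) in cranial mesenchyme. All 4 medial libraries and lateral replicates 1 and 2 lay above every cranial mesenchyme library, and lateral replicates 3 and 4 did not. The difference of 3.04 ± 0.40 was 8.21-fold (adjusted p = 6.1e-07 by limma), and 3.55 after quantile normalization. It was 3.25 among the tailed arrays (adjusted p = 0.00052).

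Gsc, the goosecoid homeobox gene, was 0.42, -0.98, 0.56 and 3.39 in the medial libraries, 5.16, 5.25, 3.48 and 5.06 in the lateral libraries, and between -0.78 and 0.47, with a median of -0.44, in cranial mesenchyme. The lateral libraries and medial library 4 stood far above cranial mesenchyme, and the other medial libraries were close to it. Its difference was 3.13 ± 0.63 (adjusted p = 0.0018), 2.71 without medial library 4 (adjusted p = 0.0066) and 3.21 among the tailed arrays (adjusted p = 0.13). Medial minus lateral it was -3.89 ± 0.83 (adjusted p = 0.019).

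Dlx1, a distal-less homeobox gene of the branchial arches, showed the opposite arrangement. It was 1.22, 2.47, 0.55 and 2.02 in the medial libraries, -0.37, 0, -0.34 and -0.07 in the lateral libraries, and -0.85, -0.62 and -0.04 in cranial mesenchyme. The medial libraries stood clear of cranial mesenchyme, and of the lateral ones replicate 2 alone lay above it, by a small margin. The difference of 1.21 ± 0.30 (adjusted p = 0.014) was not called without medial library 2 (1.06, adjusted p = 0.062) or cranial mesenchyme library 2 (1.15, adjusted p = 0.055), nor with the covariate (adjusted p = 0.11) or among the tailed arrays (adjusted p = 0.41). Shox2, a short stature homeobox gene, differed by -0.50 ± 0.16 (adjusted p = 0.049), but by -0.14 without cranial mesenchyme library 6, whose 2.44 stood apart (adjusted p = 0.49), and its adjusted p was 0.13 after quantile normalization. The other Dlx genes tested were not called and ranged from -0.03 for Dlx4 to 0.84 for Dlx5, and Hand1 and Hand2, factors of the lower jaw, were at 0.18 and 0.17.

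**Figure D2:**
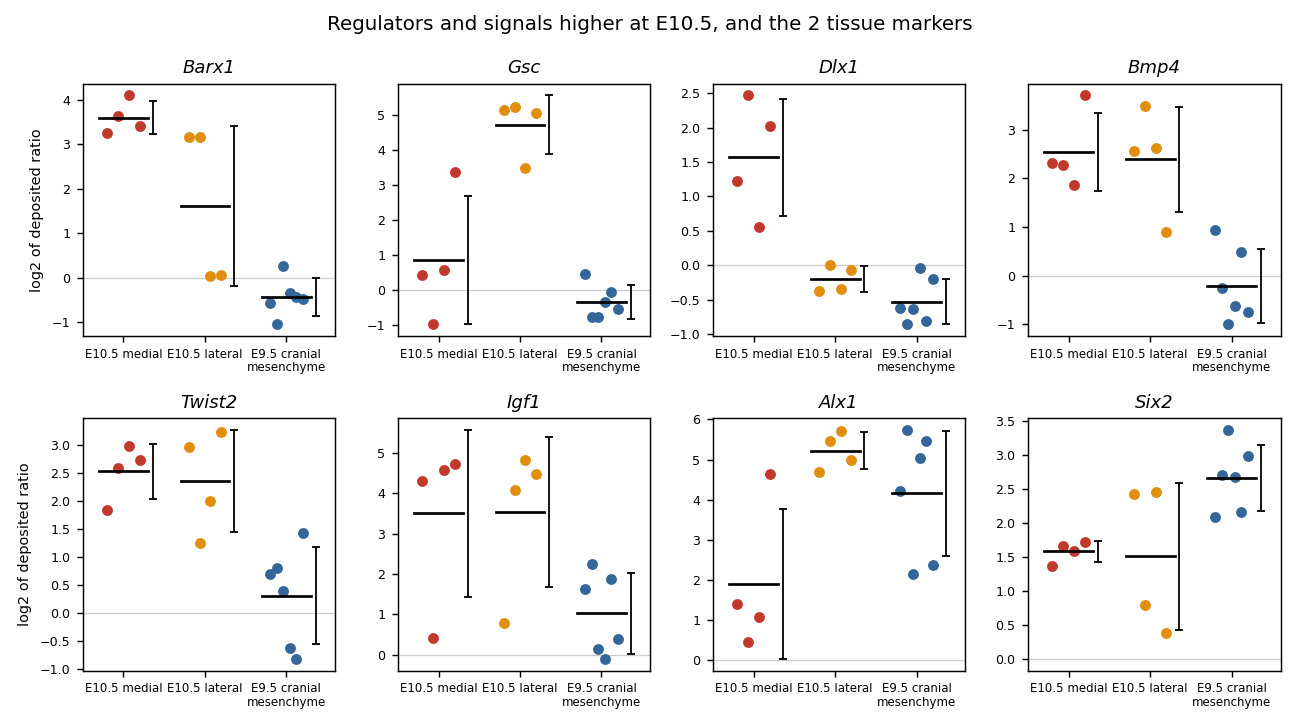
Values of 6 genes that rose and of Alx1 and Six2. Points are single libraries (vertical axis, log2 of the deposited ratio), horizontal lines group means and bars the SD, for the E10.5 medial nasal prominence (n = 4), the E10.5 lateral nasal eminence (n = 4) and E9.5 cranial mesenchyme (n = 6). Gsc and Alx1 are high in lateral libraries and medial library 4, Dlx1 in medial libraries, and Barx1 in 6 of the 8 nasal libraries.

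The regulators of mesenchyme identity divided. Of 26 tested, Twist2 rose and Foxc1 and Foxc2 fell, with a median of -0.02, where 0.707% of all genes rose and 3.26% fell. Osr1 did not pass, but did after quantile normalization (1.24, adjusted p = 0.044). Twist2, a basic helix-loop-helix factor of early connective tissue, was 1.84, 2.58, 2.97 and 2.72 in the medial libraries and 2.95, 1.25, 2.0 and 3.23 in the lateral libraries, against -0.82, 0.54 and 1.43 in cranial mesenchyme. It lay above every cranial mesenchyme library in 7 of 8 nasal libraries. The difference was 2.13 ± 0.48 (adjusted p = 0.0058) and 3.23 among the tailed arrays (adjusted p = 0.011).

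Foxc1, a forkhead factor needed for periocular and meningeal mesenchyme, was -0.05, -0.75, 0.56 and 1.61 in the medial libraries and 3.64, 2.48, 3.35 and 0.73 in the lateral libraries, against 3.1, 4.08 and 4.41 in cranial mesenchyme. All medial libraries were below cranial mesenchyme, while lateral replicates 1 and 3 overlapped it. The difference of -2.46 ± 0.49 (adjusted p = 0.0015) was -2.91 among the tailed arrays (adjusted p = 0.044). Its relative Foxc2 had a smaller difference of -1.84 ± 0.58, at the edge of the threshold (adjusted p = 0.04958), and was not called after quantile normalization (adjusted p = 0.08).

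Of 15 tested frontonasal regulators, only Tfap2b, an AP-2 factor of the neural crest, passed, and it fell, as did 3.26% of all genes. It was 0.61, -0.1, 0.48 and -0.42 in the medial libraries and 0.35, 1.13, 4.42 and 0.31 in the lateral libraries, against 0.52, 4.44 and 5.16 in cranial mesenchyme. Lateral replicate 3, the library without a lower tail, was at the level of cranial mesenchyme, and the lowest cranial mesenchyme library was at that of the nasal ones. The difference was -2.87 ± 0.57 (adjusted p = 0.0015), and -1.25 among the tailed arrays (adjusted p = 0.77). Msx2, a BMP-responsive homeobox gene, had a difference of 1.09 ± 0.35 (adjusted p = 0.056), which passed after quantile normalization (1.88, adjusted p = 0.012). Pax3, an early neural crest factor, had -0.94 (adjusted p = 0.053), and its relatives Pax7 and Pax9 0.29 and 0.36, of which Pax9 passed after quantile normalization (0.53, adjusted p = 0.036).

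In each of a pair of related groups a single member fell, beside 3.26% of all genes. Sox8, a SOX E factor of neural crest, was lower by 2.73-fold (-1.45 ± 0.31, adjusted p = 0.0031), the only member called of 13 neural crest regulators, and -0.36 among the tailed arrays. Pbx2, a TALE homeobox cofactor, was lower by 2.89-fold (-1.53 ± 0.42, adjusted p = 0.025) in a list of 11 TALE and Hox genes. Its call held after quantile normalization (adjusted p = 0.036) and in 9 of 14 fits with a library left out. It did not hold with the covariate (-0.74, adjusted p = 0.4 by limma) or among the tailed arrays (-1.43, adjusted p = 0.49).

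Signals that rose were led by BMP4, a ligand of facial outgrowth. Of 24 BMP pathway genes tested, Bmp4, Gdf6 and Smad6 rose and none fell, with a median of 0.11, where 0.707% of all genes rose and 3.26% fell. Bmp4 was 2.31, 2.27, 1.87 and 3.71 in the medial libraries, 2.57, 3.48, 2.63 and 0.9 in the lateral libraries, and -1.0, -0.44 and 0.93 in cranial mesenchyme. It was above every cranial mesenchyme library in 7 of 8 nasal libraries, with a difference of 2.67 ± 0.69 (6.37-fold, adjusted p = 0.017, and 0.052 without cranial mesenchyme library 2). Gdf6, a ligand of the same family, was 1.15, 1.36, 0.29 and 0.72 in the medial libraries and 0.06, 0.28, 0.58 and 0.18 in the lateral libraries, against -0.35, -0.01 and 0.06 in cranial mesenchyme. The groups did not overlap, although lateral replicate 1 and the highest cranial mesenchyme library are equal to the second decimal, and the difference was 0.64 ± 0.15 (adjusted p = 0.0087). Smad6, an intracellular inhibitor that BMP signals induce, differed by 0.80 ± 0.18 (adjusted p = 0.0044). With the covariate Bmp4 was called (adjusted p = 0.022 by limma), while Gdf6 (0.14) and Smad6 (0.097) were not. Among the tailed arrays Bmp4, Gdf6 and Smad6 were at 2.51, 0.53 and 0.46, none called (adjusted p = 0.45, 0.48 and 0.73). Of receptors and Id target genes, Bmpr1a was at -0.81, Bmpr2 at -0.02, Id1 at -0.28 and Id3 at -0.30, none called. Id2 was at 2.04 (adjusted p = 0.097) and passed after quantile normalization (3.06, adjusted p = 0.01).

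WNT pathway genes were split, 2 of 32 higher and 2 lower, against 0.707% higher and 3.26% lower over all genes. Rspo2, a secreted amplifier of WNT signalling, rose by 0.90 ± 0.22 (adjusted p = 0.011) with no overlap between the groups. Wnt11, a ligand, rose by 0.36 ± 0.11 (adjusted p = 0.046), a call lost after quantile normalization (adjusted p = 0.069). Rspo1, of the same family as Rspo2, was 0.14, -0.42, -0.03 and 1.09 in the medial libraries and 3.12, 0.12, 2.12 and 0.27 in the lateral libraries, against 1.61, 2.57 and 3.31 in cranial mesenchyme. Lateral replicates 1 and 3 lay within cranial mesenchyme. Its difference was -1.73 ± 0.44 (adjusted p = 0.014, and 0.051 after quantile normalization), and Dkk3 differed by -0.68 ± 0.16 (adjusted p = 0.0066). Without cranial mesenchyme library 3, where Dkk3 was 1.78, Dkk3 was not called (-0.43, adjusted p = 0.08 by limma). Dkk3 kept its call after quantile normalization (adjusted p = 0.033) and lost it among the tailed arrays (-0.27, adjusted p = 0.89). Rspo3 did not pass, but did after quantile normalization (1.26, adjusted p = 0.047).

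No member was called among 15 retinoic acid, 13 hedgehog, 20 FGF, 10 TGF-beta, 13 Notch, 30 axon guidance and 11 chondro-osteogenic genes tested. The members with the largest differences in these lists were Crabp2 at -0.77, Cdon at 0.77, Dusp6 at -1.06, Tgfb2 at 0.52, Hey1 at -0.63, Efna2 at -0.81 and Runx3 at 0.25, with adjusted p from 0.11 to 0.58. After quantile normalization Tgfbi, of the TGF-beta list, was called (0.71, adjusted p = 0.038).

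Growth factor and other genes with large increases included Igf1, Slitrk6 and Ackr3. Igf1, insulin-like growth factor 1, was 4.31, 0.41, 4.57 and 4.71 in the medial libraries and 0.78, 4.07, 4.82 and 4.47 in the lateral libraries, against -0.11, 1.01 and 2.25 in cranial mesenchyme. Medial replicate 2 and lateral replicate 1 stayed within cranial mesenchyme, and the remaining 6 of 8 were above all of it. The difference was 2.49 ± 0.45 (5.62-fold, adjusted p = 0.00075). It was the only call in a list of 19 imprinted growth genes and their partners. The next 4 genes were singled out after their values were seen. Slitrk6, a transmembrane protein of neural and sensory tissue, was 3.94, 0.61, 5.21 and 5.51 in the medial libraries and 1.48, 0.36, 3.2 and 4.8 in the lateral libraries, against -0.28, -0.16 and 0.38 in cranial mesenchyme. Lateral replicate 2 alone overlapped cranial mesenchyme, and the difference was 3.22 ± 0.75 (9.32-fold, adjusted p = 0.0073). Ackr3, a chemokine scavenger receptor, rose by 1.83 ± 0.35 (adjusted p = 0.00098), and Ptn, which encodes the secreted growth factor pleiotrophin, by 2.03 ± 0.52 (adjusted p = 0.016), both above every cranial mesenchyme library in 7 of 8. Scx, a tendon precursor factor, differed by 2.17 ± 0.67 (adjusted p = 0.048), a call lost in 9 of 14 fits with a library left out.

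A further set rose with no overlap between the 8 nasal and 6 cranial mesenchyme libraries, as the rule that named them asked. Over all genes, 21 (0.105%) lay higher without overlap and 67 (0.336%) lower. Gng8, a G protein gamma subunit, was 3.86 to 4.61 in the medial libraries and 4.0 to 5.51 in the lateral ones, against 0.87 to 3.67 in cranial mesenchyme (difference 2.11 ± 0.64, adjusted p = 0.043, and 0.12 after quantile normalization). Bcl11a, a zinc finger repressor, rose by 1.65 ± 0.42 and Loxl1, which cross-links elastin, by 1.37 ± 0.39. Shisal2a, Appbp2os, Hic1, Myadm, Tnfaip8l2, Usp27x and the acetyltransferase gene Kat6b rose by 0.22 to 1.66. Of these, Myadm and Usp27x were not called after quantile normalization.

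Mir100hg, Dnm3os and Mir451a, transcripts that carry microRNAs, rose. They were chosen after their values were seen, and microRNA transcripts in general were not counted. Mature sequences are printed from RefSeq (GRCm38.p6), with the seed, bases 2 to 8, in capitals, because the seed determines which messengers a microRNA pairs with. Mir100hg on chromosome 9 hosts miR-100 and miR-125b-1, besides let-7a-2, for which no mature sequence is shown. Dnm3os on chromosome 1 hosts miR-199a-2 and miR-214, and miR-144 and miR-451a are neighbours on chromosome 11, known from red blood cell precursors.
miR-100-5p: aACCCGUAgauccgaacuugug
miR-125b-5p: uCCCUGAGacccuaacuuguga
miR-199a-5p: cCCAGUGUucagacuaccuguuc
miR-199a-3p: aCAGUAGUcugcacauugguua
miR-214-3p: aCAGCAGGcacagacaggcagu
miR-451a: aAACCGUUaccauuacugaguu
miR-144-3p: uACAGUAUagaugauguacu

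The 7 seeds are all different. Mir100hg was 1.53, 3.88, 3.71 and 3.25 in the medial libraries and 1.2, 4.78, 2.17 and 2.47 in the lateral libraries, against -0.5, -0.16 and 1.43 in cranial mesenchyme. It was above all cranial mesenchyme libraries in 7 of 8, with a difference of 2.71 ± 0.52 (6.54-fold, adjusted p = 0.0011) and 3.32 among the tailed arrays (adjusted p = 0.02). None of the probe sets of the hairpins inside it was called: Mir100 was at -0.14, Mirlet7a-2 at -0.06, and Mir125b-1 at 0.97 ± 0.31 (adjusted p = 0.058, and 0.03 after quantile normalization), where medial library 2 had 5.94 and the other nasal libraries -0.18 to 0.62. These probe sets measure precursor sequence on an array for long RNA, so mature microRNA was not measured.

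Dnm3os was 1.54, 4.31, 3.87 and 3.67 in the medial libraries and 0.92, 1.36, 2.26 and 0.81 in the lateral libraries, against 0.24, 0.59 and 2.9 in cranial mesenchyme. It was high in 3 medial libraries, while every lateral library lay within cranial mesenchyme. The difference was 1.38 ± 0.27 (adjusted p = 0.0011) and, medial minus lateral, 2.01 ± 0.35 (adjusted p = 0.00071). Dnm3, on the other strand at the same locus, differed by -0.10 ± 0.04 (adjusted p = 0.18).

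Mir451a was 0.46, 3.79, 3.53 and 1.78 in the medial libraries and 2.89, 3.05, 1.31 and 4.6 in the lateral libraries, against -0.11, -0.06 and 3.05 in cranial mesenchyme. Cranial mesenchyme library 1, at the highest of these values, was the exception to a low group, and 3 nasal libraries exceeded it. The difference was 2.09 ± 0.47 (adjusted p = 0.0055), and that of Mir144 1.57 ± 0.50 (adjusted p = 0.053, and 0.022 after quantile normalization). The erythroid protein-coding genes that were called, given below, fell.

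Of 24 tested cell cycle genes, 10 fell and none rose, with a median of -0.94 against -0.04 over all genes. Over all genes 3.26% fell. After quantile normalization 6 were lower and the median was -0.57, against 0.03 over all genes. Aurkb, a mitotic kinase, was -2.45, -2.62, -1.44 and -1.33 in the medial libraries and -2.76, -1.32, -0.39 and -3.51 in the lateral libraries, against -0.48, 0.3 and 0.91 in cranial mesenchyme. It was below every cranial mesenchyme library in 7 of 8, the exception being lateral replicate 3, and differed by -2.16 ± 0.45 (adjusted p = 0.0027). Ccna2, cyclin A2, differed by -2.02 ± 0.51, and Mcm5 and Mcm3, parts of the replicative helicase, by -1.67 and -1.65. With the covariate none of these 4 was called, with adjusted p of 0.063 for Aurkb, 0.28 for Ccna2, 0.22 for Mcm5 and 0.14 for Mcm3. Other markers of division did not pass, among them Mki67 at 0.09, Top2a at 0.75 (adjusted p = 0.13) and Ccnd1 at -0.93.

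Of 23 tested members of a glycolysis and hypoxia list, 6 fell, none rose and 17 were not called, with a median of -0.50. Over all genes 3.26% fell. After quantile normalization 5 were lower and the median was -0.19. The members that fell were all enzymes of glycolysis or of lactate formation, Pfkl, Tpi1, Pkm, Ldha, Aldoa and Pgk1. Of the other members, Slc2a1 was at -1.68 (adjusted p = 0.054 by limma), P4ha1 at -1.39, Ankrd37 at -0.96, Pfkp at -0.64 and Bnip3 at -0.55, none called. Vegfa was at 0.37, Adm at -0.06 and Car9 at -0.09, also not called. Across the list, 4 of 23 members had a positive difference. Tpi1, triose phosphate isomerase, was -2.42, -2.14, -1.75 and -2.21 in the medial libraries and -1.08, -3.14, 0 and -2.47 in the lateral libraries, against -0.73, -0.07 and 0.97 in cranial mesenchyme. Only lateral replicate 3 overlapped. The difference of -1.90 ± 0.32 (3.73-fold lower, adjusted p = 0.00021) was -1.04 after quantile normalization (adjusted p = 0.00054) and -1.74 among the tailed arrays (adjusted p = 0.044).

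Pgk1, phosphoglycerate kinase, was -1.51, -3.98, -1.27 and -1.51 in the medial libraries and -0.45, -1.16, -0.32 and -1.92 in the lateral libraries, against -0.34, -0.11 and 0.19 in cranial mesenchyme. Again lateral replicate 3 alone overlapped. Its difference was -1.40 ± 0.22 (adjusted p = 9.6e-05), -0.69 after quantile normalization and -1.52 among the tailed arrays (adjusted p = 0.011). Ldha, lactate dehydrogenase A, lay between -3.3 and -0.32 in the nasal libraries and between -0.14 and 0.49 in cranial mesenchyme, with no overlap and a difference of -1.63 ± 0.31 (adjusted p = 0.00097). Pgam1, a further enzyme of the chain named after its values were seen, differed by -2.68 ± 0.44 (adjusted p = 0.00017). Pfkl lost its call after quantile normalization (-1.31, adjusted p = 0.051).

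Promoters of these genes that moved together were searched for ACGTG on both strands (capitals, ACGTG or its complement CACGT), the core of the hypoxia response element, in 250 bases before to 50 after the first start listed by RefSeq (GRCm38.p6). The motif was found in Pgk1, Ldha and Pgam1 and not in the windows of Aldoa, Tpi1, Pkm and Pfkl, 3 of 7, against 19.7% of 27025 genes. These genes were chosen for their fall in the same data, and Pgam1 after its values were seen. The shares are therefore not a test of the motif. The Pgk1 promoter is at chrX:106186850-106187149 (plus strand) and that of Ldha at chr7:46845554-46845853 (plus strand). They are shown as the pair with more than a single match. The run CACGTG reads as both motifs, which then overlap. A match is a description of the letters and not a bound site.
Pgk1 promoter: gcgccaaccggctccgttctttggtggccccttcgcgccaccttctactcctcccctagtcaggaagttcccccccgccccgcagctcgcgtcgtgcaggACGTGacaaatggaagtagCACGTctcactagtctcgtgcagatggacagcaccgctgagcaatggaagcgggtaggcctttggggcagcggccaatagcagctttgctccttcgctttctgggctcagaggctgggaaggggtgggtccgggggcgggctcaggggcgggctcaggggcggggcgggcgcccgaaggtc
Ldha promoter: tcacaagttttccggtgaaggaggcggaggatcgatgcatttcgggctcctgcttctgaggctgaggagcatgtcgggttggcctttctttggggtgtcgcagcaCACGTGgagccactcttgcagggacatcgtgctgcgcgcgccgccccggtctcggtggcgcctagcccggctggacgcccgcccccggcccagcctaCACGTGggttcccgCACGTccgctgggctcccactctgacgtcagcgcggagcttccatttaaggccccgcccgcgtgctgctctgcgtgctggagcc

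Of 29 matrix and proteoglycan genes, 4 were lower and none higher, and of 21 collagens 1 was lower, against 3.26% of all genes. After quantile normalization each list had 1 lower member, against 1.5% of all genes. A single member is too few to set a list apart from these shares. Lum, the proteoglycan lumican, was 0.33, 0.07, 3.06 and 0.74 in the medial libraries and -0.01, -0.06, 1.22 and -0.1 in the lateral libraries, against 1.03, 3.55 and 5.14 in cranial mesenchyme. Medial replicate 3 and lateral replicate 3 overlapped cranial mesenchyme. The difference was -2.68 ± 0.53 (6.39-fold lower, adjusted p = 0.0015, and 0.27 among the tailed arrays). Col1a2, a chain of type I collagen, differed by -1.19 ± 0.24 (adjusted p = 0.0015). Emilin1, Nid1 and Itga8 differed by -1.08, -0.54 and -0.43, and none of these 3 was called after quantile normalization.

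Among 16 tested genes of early embryonic and oncofetal programs, Lin28b, Igf2bp1, Igf2bp3 and Arid3a fell and none rose, with a median of -0.21. Over all genes 3.26% fell. Lin28b, an RNA-binding protein that blocks let-7 maturation, was -0.6, -0.63, -0.63 and -0.57 in the medial libraries and -0.51, -0.6, 0.38 and -0.73 in the lateral libraries, against -0.57, 0.73 and 3.73 in cranial mesenchyme. The nasal libraries formed a narrow low group apart from lateral replicate 3, and cranial mesenchyme spread from that level upward. The difference was -1.69 ± 0.44 (adjusted p = 0.017, 0.044 after quantile normalization, 0.12 and 0.086 without cranial mesenchyme libraries 2 and 4, and 0.054 among the tailed arrays). Igf2bp1, Igf2bp3 and Arid3a were not called after quantile normalization. Lin28a and Hmga2, partners in the same program, had differences of -0.31 and 0.18 and did not pass.

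**Figure D3:**
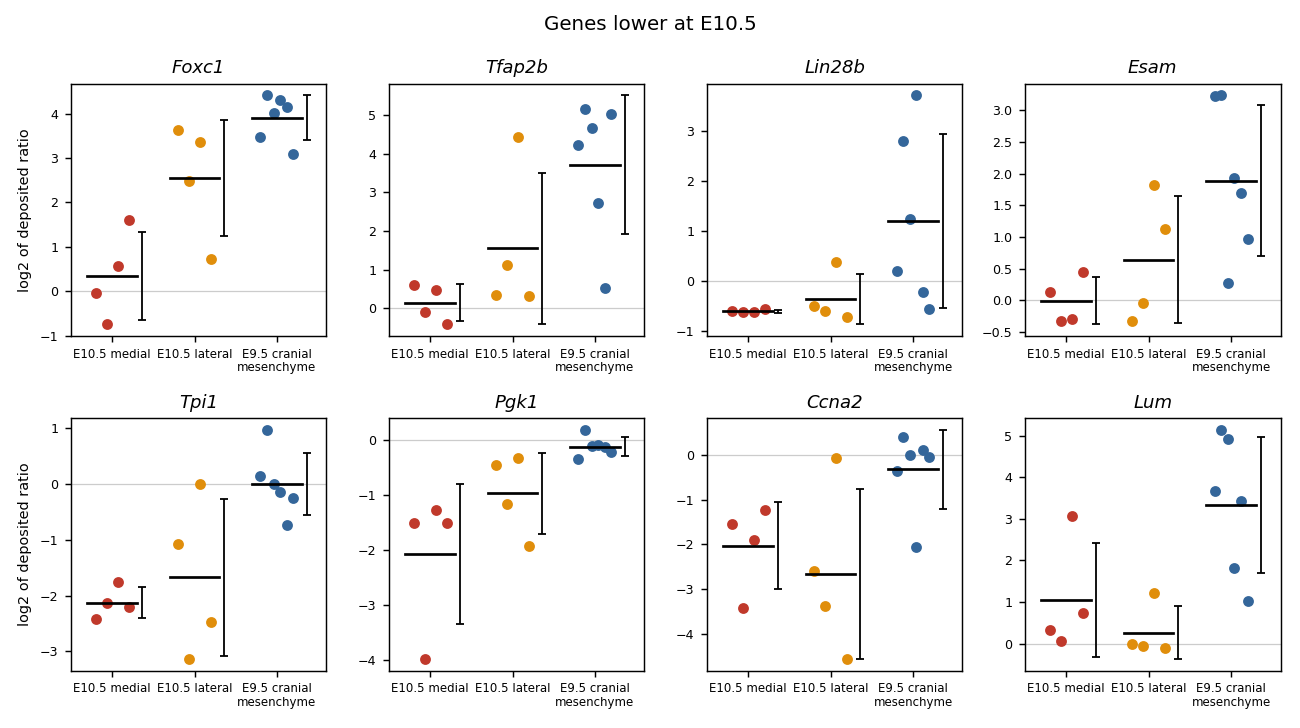
Values of 8 genes that fell. Points are single libraries (vertical axis, log2 of the deposited ratio), horizontal lines group means and bars the SD, for the E10.5 medial nasal prominence (n = 4), the E10.5 lateral nasal eminence (n = 4) and E9.5 cranial mesenchyme (n = 6). Lateral replicate 3 lies with cranial mesenchyme for Tfap2b at 4.42, Tpi1 at 0 and Ccna2 at -0.08.

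The genes that fell furthest without overlap, 12 by the rule that named them, were Crcp, a subunit linked to RNA polymerase III (-3.05 ± 0.60, adjusted p = 0.0014), Tagln2, an actin-binding protein (-2.55 ± 0.45), Sars, the seryl-tRNA synthetase (-2.39 ± 0.55), the splicing factor gene Hnrnpf (-2.38 ± 0.48), Ccdc86, Rsl1d1, Pkdcc, Nxn, Pcbp4, Mrfap1, Igdcc3 and the corepressor gene Trim28 (-2.02 ± 0.41). Crcp alone of these 12 was called among the tailed arrays (-4.35, adjusted p = 0.0035). Genes named after their values were seen included Cnn2, a calponin that binds actin (-3.85 ± 0.80), Eif3e, a translation initiation subunit (-3.80 ± 0.70), the chaperonin subunits Cct4 and Cct3 (4.00-fold lower for Cct3), and Lamp5, a lysosomal membrane protein gene of neurons (-1.78 ± 0.21, adjusted p = 1.6e-08). Lamp5 was 0.04, 0.18, -0.09 and 0.77 in the medial libraries and -0.13, 0.16, 0.23 and 0.15 in the lateral libraries, against 0.25, 1.87 and 4.19 in cranial mesenchyme. It was called after quantile normalization, with the covariate and among the tailed arrays (-2.08, adjusted p = 2.9e-06). In the fit of the 3 compared groups alone Lamp5 was not called. Its SE and p-value above rest on the spread pooled over 22 groups, not on that of these libraries alone.

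Across both directions, 24 higher and 47 lower genes were called in the comparison itself, after quantile normalization and with the covariate. Of these, 5 higher (Barx1, Mir100hg, Twist2, Mir451a and Dnm3os) and 18 lower, Foxc1, Tpi1, Pgk1, Pgam1, Esam and Lamp5 among them, were also called among the tailed arrays alone.

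Markers of other cells that a captured region can hold were read in the same libraries. In bulk tissue, fewer cells of a type and less RNA per cell cannot be told apart. Of 12 endothelial markers, Cldn5, Esam and Eng fell and none rose, with a median of -0.42, where 3.26% of all genes fell. Cldn5 was not called after quantile normalization (-1.45, adjusted p = 0.098) and was called in 5 of 14 fits with a library left out. Eng was 2.93 and 2.37 in cranial mesenchyme libraries 2 and 3, and 0.29 to 0.6 in the others. It was called after quantile normalization (adjusted p = 0.021) and in 10 of 14 fits with a library left out. Eng was not called with the covariate (adjusted p = 0.14 by limma) or among the tailed arrays (-0.37, adjusted p = 0.96). The mean over the list ran from -0.10 to 1.01 in nasal libraries and from 0.57 to 1.90 in cranial mesenchyme. Esam, an adhesion molecule of vessels, was 0.14, -0.32, -0.3 and 0.45 in the medial libraries and -0.33, -0.04, 1.82 and 1.12 in the lateral libraries, against 0.28, 1.81 and 3.24 in cranial mesenchyme. It was below all of cranial mesenchyme in 5 of 8 nasal libraries (difference -1.58 ± 0.33, adjusted p = 0.0031). Cdh5, Kdr, Tek and Flt1 stayed between -0.18 and -0.05, none called. Emcn at -1.83 (adjusted p = 0.16 by limma), Egfl7 at -0.71 and Pecam1 at -0.65 were not called either. A positive difference was seen in 1 of the 12 markers, Sox18 at 0.33.

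Of 8 tested erythroid markers, Klf1, Alas2 and Gata1 fell, where 3.26% of all genes fell. Alas2 was not called after quantile normalization (adjusted p = 0.11) and was called in 4 of 14 fits with a library left out. Klf1, the main red cell transcription factor, was -0.54, -0.44, -0.35 and -0.21 in the medial libraries and 2.07, -0.03, 1.34 and 0.07 in the lateral libraries, against 0.05, 2.94 and 3.35 in cranial mesenchyme. All medial libraries and lateral replicate 2 lay below cranial mesenchyme. The difference was -2.06 ± 0.40 (adjusted p = 0.0013). Embryonic globins were not called, with Hba-x at -0.08, Hbb-bh1 at -0.03 and Hbb-y at 0.10. The mean over the list ran from 0.16 to 0.85 in nasal libraries and from 0.53 to 1.45 in cranial mesenchyme.

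Of 11 macrophage markers, Tyrobp and C1qa rose and none fell, where 0.707% of all genes rose and 3.26% fell. Tyrobp, a signalling adaptor of myeloid cells, was 2.84, 0.39, 3.17 and 0.63 in the medial libraries and 3.77, 4.43, 2.57 and 3.2 in the lateral libraries, against -0.12, 0.06 and 2.03 in cranial mesenchyme. It was above all of cranial mesenchyme in 6 of 8, medial replicates 2 and 4 being the exceptions (difference 2.02 ± 0.41, adjusted p = 0.0018). The list mean was 0.28 to 0.89 in nasal libraries and 0.06 to 0.49 in cranial mesenchyme, and of the members not called, Csf1r and Cx3cr1 were at 0.13 and 0.29, and C1qb and Fcer1g at -0.51 and -0.79.

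No marker was called among 14 surface ectoderm, 10 olfactory epithelium, 15 neural epithelium, 12 neuron, 9 muscle precursor and 9 pericyte genes, whose largest differences were Krt18 at 0.54, Lhx2 at -0.75, Fabp7 at -2.21, Stmn2 at -0.97, Actc1 at -0.48 and Notch3 at 0.31. After quantile normalization Myf5, of the muscle precursor list, was called (0.40, adjusted p = 0.038). Jun, the only call among 16 immediate early genes, rose by 1.15 ± 0.33 (adjusted p = 0.035), with 3 of 8 nasal libraries above every cranial mesenchyme library. It was called after quantile normalization (adjusted p = 0.0066) and in 8 of 14 fits with a library left out. Jun was not called with the covariate (adjusted p = 0.076 by limma) or among the tailed arrays (adjusted p = 0.48). Fabp7, a marker of neural progenitors, and Stmn2, of neurons, were at 1.67 and 2.32 in lateral replicate 3, against at most -1.99 in the other lateral libraries, and at 2.18 and 1.78 in medial replicate 3. The part of these cells in the results above was not tested. Ratios give no level, so which markers are undetected cannot be said.

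**Figure D4:**
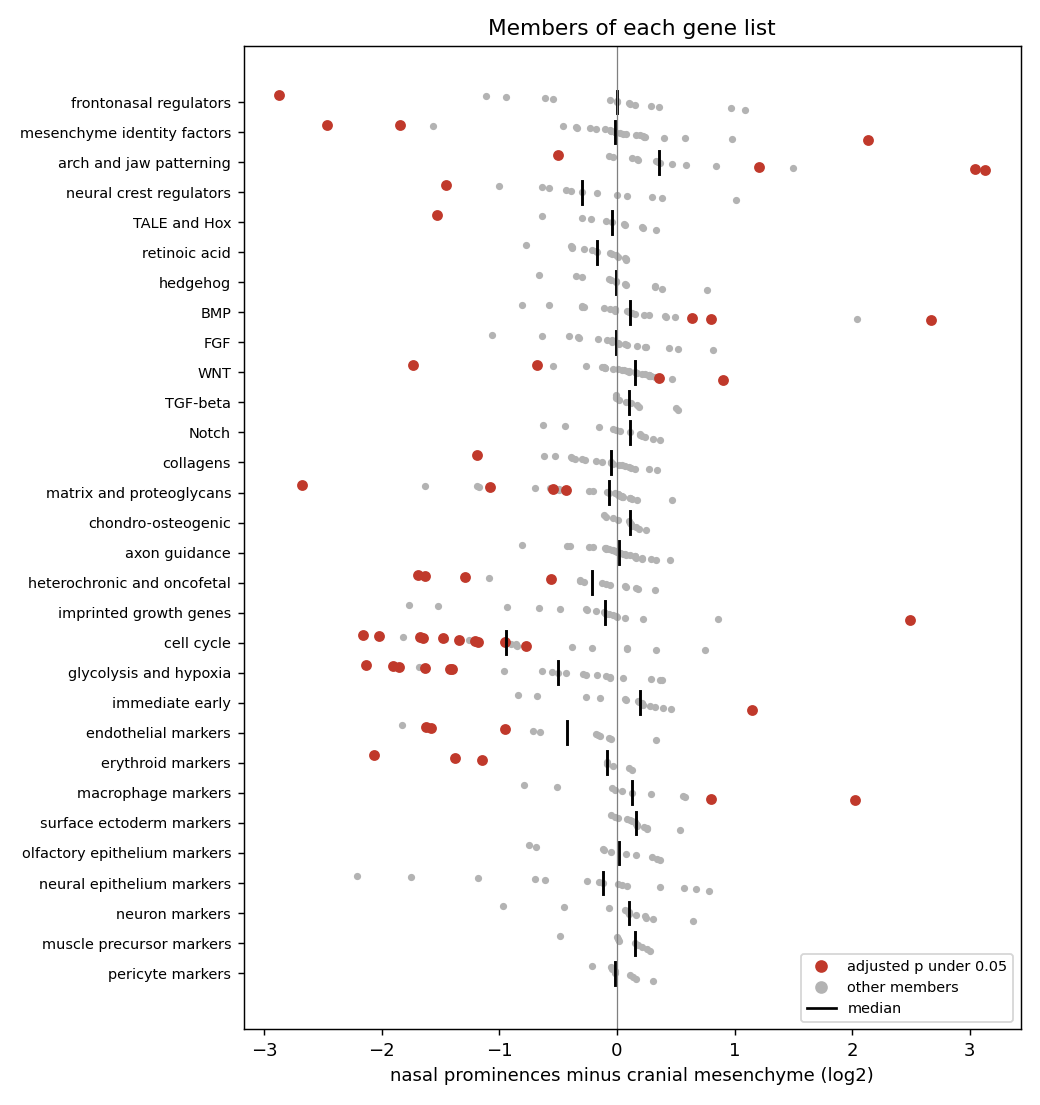
Differences of list members. Each point is a gene, the horizontal axis its difference in log2 between E10.5 nasal prominences and E9.5 cranial mesenchyme, and each row a list; red points have an adjusted p under 0.05 and black bars are list medians. The cell cycle list has the lowest median, -0.94, and 10 red points, all lower.

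The prominences were then set against cranial mesenchyme apart and against each other. Alone, the medial nasal prominence gave 1210 genes (6.07%), 347 higher (1.74%) and 863 lower (4.33%), and the lateral eminence gave 54 (0.271%), 24 higher (0.12%) and 30 lower (0.15%). After quantile normalization the splits were 389 higher and 363 lower for the medial prominence, and 51 higher and 35 lower for the lateral eminence, so the excess of lower genes depended on the scaling. These comparisons share their cranial mesenchyme libraries. The medial count was 138 without medial replicate 2, and the lateral count 590 without lateral replicate 3 and 14 without cranial mesenchyme replicate 2. Medial minus lateral, 23 genes differed (0.115%), 12 higher (0.0602%) and 11 lower (0.0552%), and 115 without medial replicate 3.

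Besides Gsc and Dlx1, Alx1 differed by -3.32 ± 0.61 (adjusted p = 0.0016). Tbx3, a T-box factor of limb and facial mesenchyme named after its values were seen, was 1.09, 1.9, 1.41 and 1.42 in the medial libraries and -0.22, 0.25, -0.36 and 0.05 in the lateral libraries. These groups did not overlap, with a difference of 1.52 ± 0.27 (adjusted p = 0.0012). Mab21l2, a regulator of eye and face development, was 2.55, 2.89, 3.66 and 4.16 in the medial libraries and 0.01, 0.33, -0.26 and 0.56 in the lateral libraries (difference 3.15 ± 0.69, adjusted p = 0.021). Against cranial mesenchyme both prominences together gave 0.03 for Tbx3 and 1.67 for Mab21l2, neither called.

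Higher in the lateral eminence were Cxcl13 and Hpgd, but unevenly. Cxcl13, a chemokine, was -0.21, 0.11, 0.13 and 0.09 in the medial libraries and 5.47, 0.15, 5.02 and 0.48 in the lateral libraries, so that lateral replicates 1 and 3 carried the difference of -2.75 ± 0.46 (adjusted p = 0.00053). Hpgd, which degrades prostaglandins, had 4.44 in lateral replicate 3 and 0.72 to 0.93 in the other lateral libraries, against -0.17 to 0.12 in the medial ones. By the rule, 4930483J18Rik (0.81 ± 0.12) and Polr2d, an RNA polymerase II subunit (-2.20 ± 0.48), complete the genes named here.

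The last question was which of these differences also appear as a stage difference elsewhere, in libraries whose values do not enter the main difference. They do enter the spread pooled over 22 groups, on which the p-values of every comparison rest. Calls shared between comparisons are therefore not independent. The maxillary arch gave 1707 genes between E10.5 and E9.5 (8.56%), 335 higher (1.68%) and 1372 lower (6.88%), and the neuroepithelium 85 (0.426%), 56 higher (0.281%) and 29 lower (0.145%). The maxillary count was 357 without E9.5 maxillary replicate 2 and 3715 without E9.5 maxillary replicate 4, which has a lower tail. After quantile normalization it was 535 higher and 370 lower, so that the balance of directions turned round. Of the 649 genes lower in nasal prominences, 198 were also lower at E10.5 in the maxillary arch, 30.5% of the first list and 14.4% of the second. Of the 141 that rose, 9 were also higher there, 6.38% of the first list and 2.69% of the second, and 2 were lower. With both comparisons quantile-normalized, 48 genes were lower in both (16% of 300 and 13% of 370) and 15 were higher in both (9.55% of 157 and 2.8% of 535). In the neuroepithelium 2 of the 141 and 2 of the 649 were called in the same direction.

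The lists described above were counted in the maxillary arch without quantile normalization. Of 24 cell cycle genes 7 were lower there, and of 23 glycolysis and hypoxia genes 3. Of 16 early embryonic and oncofetal genes 7 were lower, and of 12 endothelial genes 10. Over all genes 6.88% were lower, and none of these 4 lists had a higher member. The members were only in part those that fell in the nasal prominences. Of the first list Aurkb, Mcm2, Mcm3 and Mcm5 were lower in both comparisons, and of the second Ldha and Pfkl. Tpi1, Pgk1, Aldoa, Pkm and Ccna2 were not called in the maxillary arch. Lin28b differed by -2.01 (adjusted p = 0.0096), Foxc1 by -3.54 (adjusted p = 4.9e-05), Esam by -2.35 (adjusted p = 7.8e-05), Klf1 by -1.90 (adjusted p = 0.0083), Aurkb by -2.14 (adjusted p = 0.0079) and Ldha by -1.21 (adjusted p = 0.025). In the neuroepithelium none of these 6 was called, and their differences ran from -0.69 for Lin28b to 0.44 for Klf1. Tfap2b, at -0.09, and Twist2 and Igf1, at 0.14 and 0.16, were not called in the maxillary arch.

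The difference of the differences, nasal minus cranial mesenchyme beyond the maxillary stage difference, was called for 6 genes (0.0301%), 4 higher (0.0201%) and 2 lower (0.01%). Barx1 had the largest: it fell by 1.77 ± 0.47 in the maxillary arch (adjusted p = 0.012), so that the contrast was 4.81 ± 0.62 (adjusted p = 4.7e-07). Dlx1 fell by 1.11 ± 0.36 there, with a contrast of 2.32 ± 0.47 (adjusted p = 0.016). The remaining 4 were Tgfbi, Trf, Igfbp2 and Fxyd3, with contrasts of 1.42, 2.29, -2.84 and -3.12. None of these 4 passed in the nasal comparison itself, and each was called in the maxillary arch. Of 14 surface ectoderm markers, 6 were higher at E10.5 in the maxillary arch, against 1.68% of all genes. The part of these markers in the contrasts was not tested. No other gene was called.

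**Figure D5:**
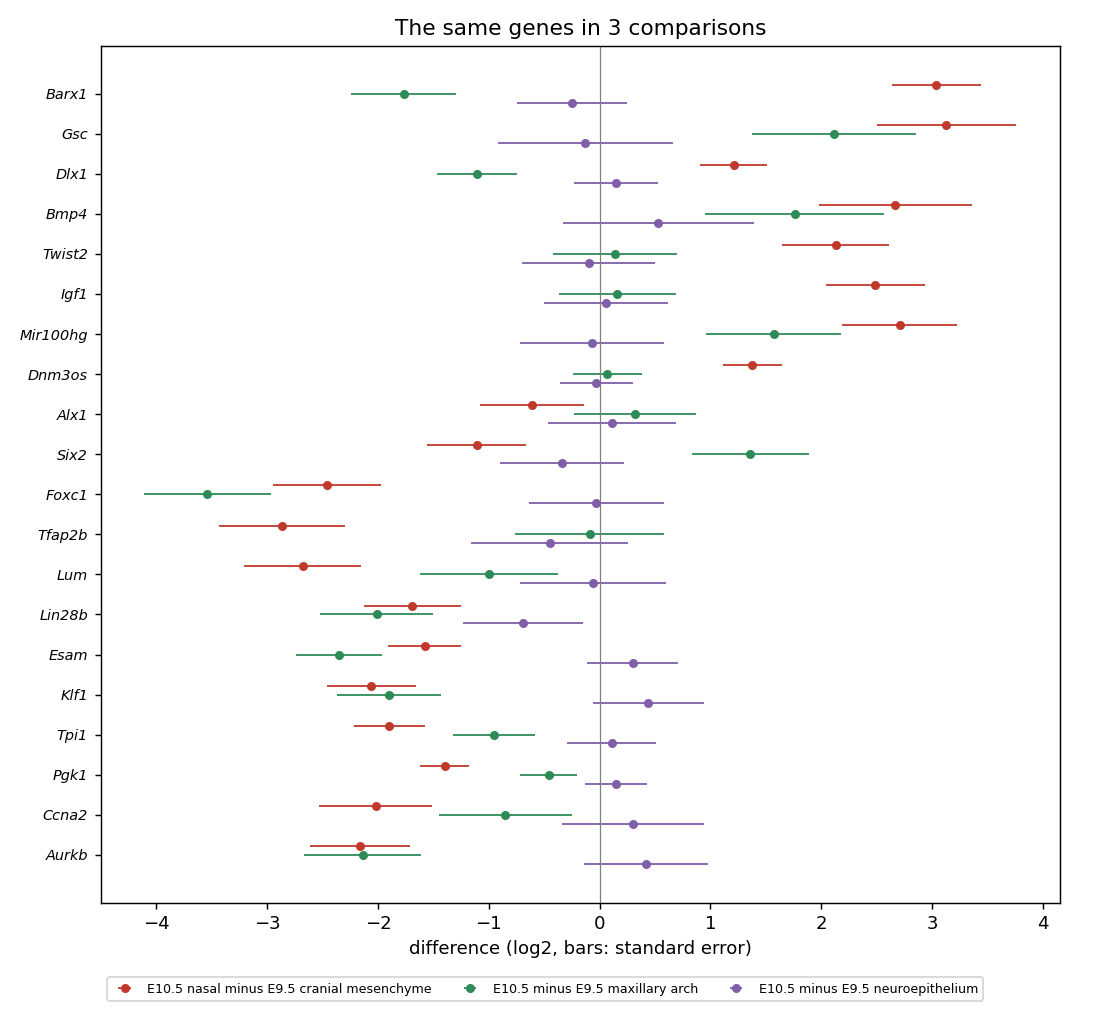
The same 20 genes in 3 comparisons. Points are differences in log2 (horizontal axis) with bars of SE for E10.5 nasal prominences minus E9.5 cranial mesenchyme, E10.5 minus E9.5 maxillary arch, and E10.5 minus E9.5 neuroepithelium. Barx1 and Dlx1 lie on opposite sides of 0 in the nasal (3.04 and 1.21) and maxillary (-1.77 and -1.11) comparisons, while Foxc1, Lin28b, Esam, Klf1 and Aurkb lie below 0 in both.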

How the data were processed

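Regions were captured by laser from frozen CD1 embryos, and RNA was amplified with NuGEN Ovation Pico WTA V2 and hybridised to Affymetrix arrays, per the labels' protocols. The submitters' processing notes name RMA and mm9. The authors deposited a linear ratio per probe set; from the values, each probe set's median over 21 arrays is 1, of which 1 is a lateral and 1 a cranial mesenchyme array. The design had assumed log2 values, so log2 of the ratio was taken. Of 28856 probe sets with values, 21789 had 1 symbol; of several for a gene, the highest mean was kept, leaving 19938 genes. Group means over 102 samples were fitted with limma 3.58.1 (R 4.3.3), with contrasts, eBayes and Benjamini-Hochberg adjustment. A sample with conflicting labels was left out.

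The members and lists were chosen with earlier results of these data known. Named were the 12 largest called genes each way without overlap and with 1 sign in both prominences, passing over predicted genes, receptors of smell and taste and small RNAs; up to 4 called members a list each way, or the largest; the extremes between prominences and beyond the maxillary difference; and Alx1 and Six2. Others were named after their values were seen. In simulated data for the nasal comparison, 73% of 2-fold and 92% of 4-fold changes among 200 of 19938 genes were recovered, and 5.17% of calls were unchanged genes. The simulated noise was normal and independent between arrays, with a spread per gene shared by all groups and no lower tail. These rates therefore check the fit and do not measure power or error in the real arrays. Strand of the probe sets was not checked. No arrays were identical.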

Additional observations from a re-analysis of the deposited data

Results flagged for a closer look

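Libraries that stood apart from the rest of their group were sought for the named genes in each of the 3 groups. There were 43 in 363 sets of values (11.8%). The rule flags about 1 in 20 sets of normal values in genes chosen without regard to them. The named genes were chosen from these same values, so the excess over that rate cannot be interpreted. Each value below is the log2 ratio of the library that stood apart.

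Lateral replicate 3 stood apart most often: Bcl11a at 2.77, Crcp at -0.46, Mrfap1 at -0.15, Gsc at 3.48, Crabp2 at 0.55, Lum at 1.22, Igf2bp1 at 0.72, Eng at 1.01, Fabp7 at 1.67, Stmn2 at 2.32 and Hpgd at 4.44. It is also the nasal array without a lower tail. Other lateral libraries were Hic1 at 2.04 in replicate 1, Pcbp4 at -3.27 and C1qa at 2.80 in replicate 2, and Mir125b-1 at 0.62 in replicate 4.

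Medial replicate 2 stood apart for Crabp2 at -3.15, Igf1 at 0.41, Mir125b-1 at 5.94, Scx at 0.29, Pgk1 at -3.98, Tgfbi at 0.41 and Igfbp2 at -2.99. The other medial libraries were Mir144 at -0.33, Cxcl13 at -0.21 and Fxyd3 at 1.02 in replicate 1, Tnfaip8l2 at 0.45 and Pkm at -1.11 in replicate 3, and Foxc2 at 2.37 in replicate 4.

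In cranial mesenchyme, replicate 2 stood apart for Bcl11a at -0.81, Hey1 at 2.04, Ldha at 0.49, Slitrk6 at 0.38, Pgam1 at 1.21, Cct3 at 0.84 and Cxcl13 at 3.31. Replicate 1 did so for Dnm3os at 2.90, Mir451a at 3.05 and Mir144 at 2.13, replicate 3 for Mir100 at 0.79 and Tbx3 at 2.30, replicate 4 for Ccna2 at -2.05, replicate 5 for Aldoa at -0.44 and replicate 6 for Shox2 at 2.44.

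The prominences differed, medial minus lateral, for Gsc (-3.89), Dlx1 (1.76), Alx1 (-3.32), Dnm3os (2.01), 4930483J18Rik (0.81), Polr2d (-2.20), Tbx3 (1.52), Mab21l2 (3.15), Cxcl13 (-2.75) and Hpgd (-1.75), each with adjusted p under 0.05 by limma. The nasal difference departed from the maxillary arch stage difference for Barx1 (4.81), Dlx1 (2.32), Tgfbi (1.42), Igfbp2 (-2.84), Fxyd3 (-3.12) and Trf (2.29).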

How the results depend on the processing

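Counts are genes with adjusted p under 0.05 by limma. For nasal prominences against cranial mesenchyme (790), they were 457 after quantile normalization, 1306 with array weights, 90 with the 5th percentile as covariate, 8 in the compared groups alone, 479 without arrays of SD over 0.85 and 89 in tailed arrays alone; the last 2 settings were chosen after seeing the data. Array centring, a variance trend, mean probe sets, a low filter and pooled nasal libraries gave 725 to 854, and 535 differed by at least 1. In the order quantile, covariate, alone, SD, the medial count (1210) was 752, 196, 257 and 632, and the maxillary count (1707) 905, 644, 34 and 1029, with 4916 under array weights. The lateral count (54) was 86 (quantile), 355 (weights), 23 (covariate), 1 (alone) and 92 (low filter). Medial minus lateral (23) gave 43 (quantile), 36 (centred), 102 (weights), 135 (covariate), 0 (alone, with 1137 at an unadjusted p under 0.05), 42 (low filter) and 37 (SD). Neuroepithelium (85) gave 193 (quantile), 165 (weights) and 3 (alone). The difference beyond the maxillary arch (6) gave 15 (quantile), 233 (weights), 15 (covariate), 0 (alone, 932 unadjusted), 11 (low filter) and 12 (SD). The cause was not tested.

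With the replicate number as a block, 1 gene was called for nasal prominences (3101 unadjusted) and 27 for the maxillary arch; limma called 0 for the medial (2460), lateral (1355), medial minus lateral (1427), neuroepithelium (1289) and beyond-maxillary (828) comparisons, unadjusted counts in parentheses. With group means removed, same-numbered libraries correlated at -0.39 to 0.48 over 12 pairs, and the same number was the best match in 2. Such correlations cannot show whether libraries share an embryo, so whether the numbers pair them is not known. The block fit holds the compared groups only.

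Leaving out each library in turn gave 176 to 1655 for nasal prominences, 138 to 1574 medial, 14 to 590 lateral, 19 to 115 medial minus lateral, 357 to 3715 maxillary, 49 to 107 neuroepithelium and 3 to 36 beyond the maxillary arch. Of 83 called named genes, 66 remained after quantile normalization, 37 with the covariate, 16 in tailed arrays and 45 without each library; 0 reversed.

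Uncalled genes changed sign. Under quantile normalization Twist1 was 0.24, Hbb-bh1 0.17 and Igfbp2 0.21. Centred, Twist1 was 0.03 and Hbb-bh1 0.02. With array weights Alx1 was 0.18, Twist1 0.21 and Tbx3 -0.07. With the covariate Runx3 was -0.03, Hba-x 0.17, Hbb-bh1 0.35 and Tbx3 -0.02. In tailed arrays Dusp6 was 0.24, Efna2 0.18, Mir100 0.02 and Hbb-bh1 0.13. Without arrays of SD over 0.85 Twist1 was 0.1, Hbb-bh1 0 and Tbx3 -0.07. In the block fit Tbx3 was -0.21 and Trf -0.11. With each library left out in turn, the differences ran from -0.12 to 0.1 for Twist1, -0.16 to 0.48 for Prrx1, -0.13 to 0.35 for Tbx3, -0.18 to 0.02 for Mir100, -0.07 to 0.02 for Hbb-bh1 and 0 to 0.24 for Trf.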
